A study of Mus musculus with 10 samples.

Results

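C2 cells at passage 8 were compared with C1 cells at passage 6, a pair of cell types grown from the same kind of mouse heart explant. The members were the 2 C2 libraries and the 2 C1 libraries, chosen by their sample titles, and they made up 4 of the 10 libraries of the series. The C2 cells were c-kit- and CD45-, and the C1 cells were c-kit+ and CD45-. c-kit is the receptor for stem cell factor and CD45 is a surface protein of leukocytes. Both types came from adult C57BL/6 mice aged 8 to 12 weeks. Pieces of the left atrial appendage, a small side chamber of the heart's left atrium, were treated with trypsin and collagenase D and cells were then grown from them in serum-containing medium. The labels describe C1 and C2 as later passages of the B-type cells, which grew after weak digestion with trypsin at 0.05% and collagenase D at 0.1%. The study asked which cell types grow after digestion of different strength and how the expression of one type differs once it has changed, of its own accord, into others. Passage number and the c-kit sort differ together between C2 and C1, so their parts in any difference below cannot be told apart. Whether the 2 libraries of a type stem from separate mice or cultures is not in the labels. The p-values rest on the spread within pairs of libraries, pooled over all 10, and that spread may be technical.

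Cells kept in culture over many passages are known to change their rate of division, their metabolism and their cell identity genes. Division is driven by cyclins and their kinases and is held back by inhibitors of these kinases. Of these, p16 from Cdkn2a and p15 from Cdkn2b act through the retinoblastoma pathway. Mesenchymal cells of the heart are told apart by their surface proteins, by the collagens and other matrix proteins they secrete, and by transcription factors of which the HOX genes record the position of a cell along the body axis.

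Expression was measured by RNA sequencing with a kit that does not mark strand, so reads from a gene and from an antisense partner, such as Xist and Tsix or Hoxa3 and its overlapping noncoding neighbour, cannot be told apart. The deposited values are on a log2 scale, and the median of each gene over the 10 libraries had been taken away, so a value of 0 is the middle of the series and not absence. For 4763 genes at least 2 libraries shared the lowest value, which was read as a floor of 1 normalized read, and for these genes a level in normalized reads can be given. For the other genes only differences are known, and a difference may be too small where a library lay at the floor. Relative depth, read from the spacing of low values, was 0.490 and 0.966 in the C2 libraries and 0.992 and 1.50 in the C1 libraries, so the deepest of the 4 held 3.06 times the reads of the shallowest. The total number of reads is unknown. A count of 3 reads, taken as the limit that 0 reads allow, corresponded to 6.12 and 3.11 normalized reads in C2 and to 3.02 and 2.00 in C1, and these limits cover counting error only. A gene is said below to have risen or fallen in C2 where limma gave an adjusted p under 0.05 over all 14253 genes tested and the absolute log2 difference, C2 minus C1, was at least 1. Each difference is given with its standard error (SE, n = 2 libraries each) and the adjusted p of limma. Both rest on the spread within the pairs of all cell types, so an SE can exceed the spread seen within C2 and C1. Where both libraries of the lower type lay at or under the limit, the difference is given as a bound in normalized reads in place of the fitted value.

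The sort markers went the way of the labels. Kit, which encodes c-kit, had 1 and 3.11 normalized reads in the C2 libraries, against 35.3 and 66.4 in the C1 libraries, and was at least 8.30-fold lower in C2 (adjusted p = 0.0295). The C2 libraries were the lower ones without overlap, but the call was lost when any 1 of the 4 libraries was left out, with adjusted p from 0.0591 to 0.147. Ptprc, which encodes CD45, was at the floor in both C2 libraries and at the limit or below in both C1 libraries. Genes of the Y chromosome also differed. Ddx3y, a helicase gene on the Y chromosome, had 57.2 and 86.2 normalized reads in C2, against 1344 and 1247 in C1, a log2 difference of -4.21 ± 0.31 (adjusted p = 0.000245). Eif2s3y, Kdm5d and Uty fell as well, and Xist differed by -0.17 ± 0.89 (adjusted p = 0.916). What the fall of these Y-linked genes shares with the results below was not tested. In a bulk sample, fewer cells of a type and less RNA per cell cannot be told apart.

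Of the 14253 genes tested, 1740 rose in C2 (12.2%) and 1166 fell (8.18%), which is 20.4% in either direction and a 59.9% share of rises among the calls. With quantile normalization the counts were 1948 and 2014, with a share of rises of 49.2%, so the balance between directions depends on the scaling. Libraries of the same type lay closer to each other than to the other type. Their root mean square log2 difference was 0.52 within C2 and 0.489 within C1, against 1.33 to 1.38 between them. It was 1.06 within A, 0.516 within B and 0.435 within C3, and these pairs also enter the SE and the adjusted p. The C2 and C1 libraries did not overlap in 72.7% of genes and in all 2906 called genes, so for a called gene the lack of overlap adds nothing to the call. Among the calls, 371 rises and 229 falls reached an absolute log2 difference of 3. The median difference over all genes tested was 0, and each list of genes below is read against that value and against the shares of 12.2% and 8.18%.

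**Figure D1:**
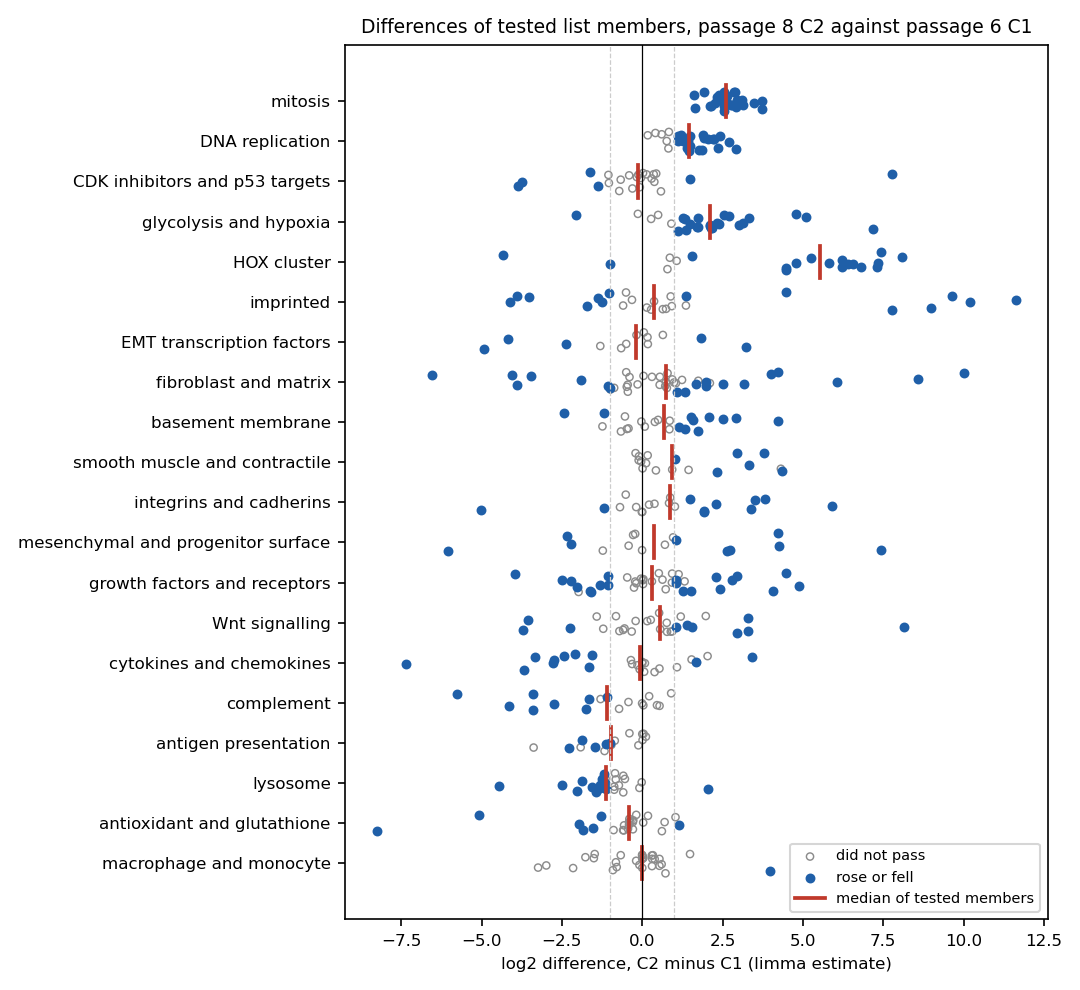
Log2 difference, C2 minus C1, of every tested member of 20 gene lists, with filled points for genes that rose or fell, open points for genes that did not pass and a red bar at the median of each list. All 28 members of the mitosis list lie right of 1, the HOX list has its median at 5.53 and the lysosome list has its median at -1.14, and genes at the limit in the lower type are drawn at their fitted value.

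The genes of cell division were higher in C2. All 28 members of the mitosis list rose, with log2 differences from 1.61 to 3.74 and a median of 2.62. The median value of the list was 0.36 and 0.50 in the C2 libraries, against -1.77 and -2.37 in the C1 libraries. Cenpf, which encodes a protein of the kinetochore and nuclear matrix, stood at 0.95 and 1.00 in C2 and at -2.58 and -2.95 in C1, a difference of 3.74 ± 0.20 (adjusted p = 8.9e-05). Mki67, the gene of the proliferation antigen Ki-67, stood at 0.70 and 0.66 in C2 and at -2.71 and -3.40 in C1, a difference of 3.73 ± 0.27 (adjusted p = 0.000235). Both C2 libraries were close together and far above both C1 libraries for this pair. Ccna2, which encodes cyclin A2, was at 0.21 and 0.40 in C2 and at -3.18 and -3.16 in C1 (3.48 ± 0.23, adjusted p = 0.000173). Ccnb2, the gene of cyclin B2, rose by 3.13 ± 0.27 and Aurka, the gene of the spindle kinase Aurora A, by 1.61 ± 0.17, which was the smallest rise of the list. All 28 calls held when any 1 of the 4 libraries was left out, with a median of the list between 2.21 and 2.99. The C3 libraries of passage 10 lay above C2 for these genes, with Mki67 at 1.81 and 1.50.

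Many promoters of late cell cycle genes are known to carry a CCAAT box and a cell cycle homology region, a pair of elements bound by the NF-Y and DREAM complexes. The promoters of Cenpf and Mki67 are shown because these were the largest rises of the mitosis list whose window held both elements. The windows are the 250 bases upstream of the annotated start, from RefSeq on build GRCm38.p6, and lie at chr1:189688087-189688336 for Cenpf and chr7:135716380-135716629 for Mki67, both on the minus strand. Capitals mark CCAAT and, for the homology region, TTTGAA or TTTAAA, searched on both strands, so CCAAT also appears as ATTGG.
Cenpf: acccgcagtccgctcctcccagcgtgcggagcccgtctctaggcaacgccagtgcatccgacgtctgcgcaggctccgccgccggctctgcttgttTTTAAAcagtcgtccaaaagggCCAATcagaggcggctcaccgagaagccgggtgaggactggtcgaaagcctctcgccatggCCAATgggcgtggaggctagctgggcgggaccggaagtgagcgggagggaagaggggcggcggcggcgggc
Mki67: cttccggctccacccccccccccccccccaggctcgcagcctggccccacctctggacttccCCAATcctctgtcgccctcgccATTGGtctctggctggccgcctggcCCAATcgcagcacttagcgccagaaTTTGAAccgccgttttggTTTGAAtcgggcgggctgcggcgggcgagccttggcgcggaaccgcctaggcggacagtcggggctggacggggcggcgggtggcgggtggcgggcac
The Cenpf window held 1 match to the homology region and 2 to the CCAAT box, and the Mki67 window held 2 and 3. The elements TTTGAA or TTTAAA were found in 58.3% of the 24 mitosis genes with a promoter entry, against 21.1% of 11059 tested genes with one. CCAAT was found in 83.3% and 40.6%, and both together in 54.2% and 8.17%. Over all 27025 genes of the promoter table the shares were 28.1%, 37.5% and 10.1%. A match describes the letters only and does not show that a factor binds there.

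DNA replication genes were higher in C2 to a smaller degree. Of 28 members of the list, 22 rose and 6 did not pass, with a median of 1.45 and between 17 and 20 rises when any 1 library was left out. Mcm5, a subunit of the replicative helicase, stood at 0.66 and 0.49 in C2 and at -2.13 and -2.53 in C1, a difference of 2.91 ± 0.25 (adjusted p = 0.000409). Cdc6, which loads that helicase, rose by 2.71 ± 0.44, Pole, the catalytic subunit of a replicative polymerase, by 2.42 ± 0.21, and Lig1, a DNA ligase, by 2.34 ± 0.28. Pcna, the polymerase clamp, differed by 0.41 ± 0.22 (adjusted p = 0.195) and E2f1, a transcription factor of the start of replication, by 0.17 ± 0.17 (adjusted p = 0.468), so neither passed. Of 14 tested replication-dependent histone genes, whose RNA is made in S phase and whose near-identical copies may share reads, 0 passed in limma and 0 had an unadjusted p under 0.05. Their median was -0.23 and 4 of the 14 were higher in C2. The median was 0.20 without C1 replicate 1 and 0.16 without C2 replicate 2, and without C2 replicate 1 2 of them fell.

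The inhibitors of cell cycle kinases did not move as a group. Of 23 inhibitors and p53 targets, 2 rose and 4 fell, with a median of -0.12, and without C1 replicate 2 the counts were 1 and 2. Cdkn2a, which encodes p16 and p19ARF, stood at -2.90 and -3.56 in C2 and at 0.34 and 0.66 in C1 and fell by 3.73 (SE 0.30, adjusted p = 0.000334). Cdkn2b, which encodes p15, had 6.12 and 13.5 normalized reads in C2, against 102 and 170 in C1, and fell by 3.86 (SE 0.45, adjusted p = 0.00125). These genes lie next to each other on mouse chromosome 4 (GRCm38.p6, chr4:89274473-89294619 for Cdkn2a and chr4:89306289-89311032 for Cdkn2b). Mtap, a gene of methionine salvage that is their neighbour at chr4:89137370-89181090, stood at -4.03 and -3.64 in C2 and at 0.37 and 0.39 in C1 and fell by 4.21 (SE 0.25, adjusted p = 0.000111). All 3 genes were low in both C2 libraries, and C3 was lower still, with Mtap at -5.43 and -4.72, Cdkn2a at -8.45 and -7.81 and Cdkn2b at the floor. The nearest tested genes outside the 3 did not follow them. On the Mtap side Gm13285 differed by -0.14 ± 0.38 (adjusted p = 0.814) and Klhl9, at chr4:88718292-88722508, by 0.14 ± 0.15 (adjusted p = 0.506). On the Cdkn2b side the first tested gene was Tusc1, at chr4:93334148-93335511, which rose by 3.05 ± 0.30. Beyond it 5830433M19Rik differed by 0.60 ± 0.19 (adjusted p = 0.0483), under the required size, and Plaa by 0.18 ± 0.18 (adjusted p = 0.479). No tested gene lies between Cdkn2b and Tusc1, so how far the falls reach on that side is not known. DNA was not measured, so the copy number of this stretch was not tested.

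Among the other inhibitors, Cdkn1c, the imprinted gene of p57, had 241 and 198 normalized reads in C2 and lay at the floor in the 2 C1 libraries, at least 72.6-fold higher in C2. Gadd45a, a stress gene, fell by 1.62 (SE 0.32, adjusted p = 0.0085), and this call was lost without C1 replicate 2 (adjusted p = 0.0544). The remaining calls were weaker. Ccng1, the gene of cyclin G1, fell by 1.39 (SE 0.36) and was called in none of the fits that left out 1 of the 4 libraries (adjusted p from 0.0535 to 0.12). Bbc3, a proapoptotic p53 target, rose by 1.49 ± 0.42, and its call was lost without C1 replicate 1, C1 replicate 2 or C2 replicate 1 (adjusted p from 0.101 to 0.159). Cdkn1a, the gene of p21, differed by 0.13 ± 0.45 (adjusted p = 0.858) and Trp53, the gene of p53, by -0.17 ± 0.12 (adjusted p = 0.325).

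The enzymes of glycolysis and the genes that respond to low oxygen formed the other large group of rises. Glycolysis splits glucose to pyruvate and lactate, and many of its genes are known targets of the hypoxia-inducible factors. Of 27 members of the list, 22 rose and 1 fell, with a median of 2.11. The median value of the list was 0.10 and 0.16 in the C2 libraries, against -1.76 and -1.59 in the C1 libraries. Between 21 and 22 members rose when any 1 library was left out.

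Transporters and hypoxia genes had the largest differences. Slc16a3, the lactate exporter MCT4, stood at 0.21 and -0.25 in C2 and at -8.01 and -6.36 in C1, a difference of 7.17 ± 0.49 (adjusted p = 0.000188). Car9, a carbonic anhydrase of the cell surface, stood at 3.03 and 3.42 in C2 and at -1.85 and -1.91 in C1, a difference of 5.10 ± 0.54 (adjusted p = 0.000854). In both genes the 2 C1 libraries were far below the C2 libraries, and in Slc16a3 they differed from each other by more than 1 log2 unit. Ankrd37, a hypoxia-induced gene, stood at 0.89 and 1.35 in C2 and at -3.54 and -3.77 in C1 (4.78 ± 0.33, adjusted p = 0.000188). Egln3, a prolyl hydroxylase that marks the hypoxia-inducible factors for breakdown, rose by 3.33 ± 0.46. Pdk1, a kinase that inhibits pyruvate dehydrogenase, rose by 2.99 ± 0.30. The glucose transporter gene Slc2a1 rose by 2.31 ± 0.22. Along the glycolytic chain itself the rises were smaller and alike. Eno1 rose by 2.14 ± 0.21, Pgk1 by 2.12 ± 0.18, Ldha, the gene of lactate dehydrogenase A, by 2.11 ± 0.14, Gapdh by 1.48 ± 0.15 and Pkm, the pyruvate kinase gene, by 1.10 ± 0.20. Gapdh stood at 0.34 and 0.26 in C2 and at -1.36 and -0.99 in C1, so this often used standard was not level between these cells on the deposited scale.

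Not every member followed. Adm, the gene of the vasodilator adrenomedullin and also a hypoxia target, stood at -2.13 and -2.0 in C2 and at 0.07 and -0.07 in C1 and fell by 2.06 (SE 0.36, adjusted p = 0.00577). Vegfa, the main angiogenic growth factor, differed by 0.27 ± 0.42 (adjusted p = 0.654) and Hk1, a hexokinase, by -0.14 ± 0.20 (adjusted p = 0.634).

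The core of the hypoxia response element is ACGTG or GCGTG, and the promoters of Slc16a3 and Car9 are shown because they were the largest rises of the list whose window held it. The windows are the 250 bases upstream of the start on the plus strand, from RefSeq on GRCm38.p6, at chr11:120948817-120949066 for Slc16a3 and chr4:43506776-43507025 for Car9. Capitals mark the core on either strand, so ACGTG also appears as CACGT, and ACGTG also lies inside the E-box CACGTG.
Slc16a3: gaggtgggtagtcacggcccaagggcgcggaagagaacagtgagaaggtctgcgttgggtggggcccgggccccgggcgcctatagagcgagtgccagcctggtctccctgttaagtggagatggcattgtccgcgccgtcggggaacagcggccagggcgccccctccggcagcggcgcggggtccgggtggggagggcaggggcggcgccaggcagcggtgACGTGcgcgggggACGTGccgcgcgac
Car9: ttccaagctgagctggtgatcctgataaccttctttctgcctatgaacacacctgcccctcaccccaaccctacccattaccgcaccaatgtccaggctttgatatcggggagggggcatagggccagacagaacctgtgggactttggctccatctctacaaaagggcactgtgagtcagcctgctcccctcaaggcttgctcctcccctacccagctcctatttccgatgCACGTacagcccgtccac
The Slc16a3 window held 2 matches and the Car9 window 1. The core was found in 88.5% of the 26 list members with a promoter entry, against 59.9% of 11059 tested genes and 41.5% of the 27025 genes of the promoter table. A core this short is common, and a match does not show binding.

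**Figure D2:**
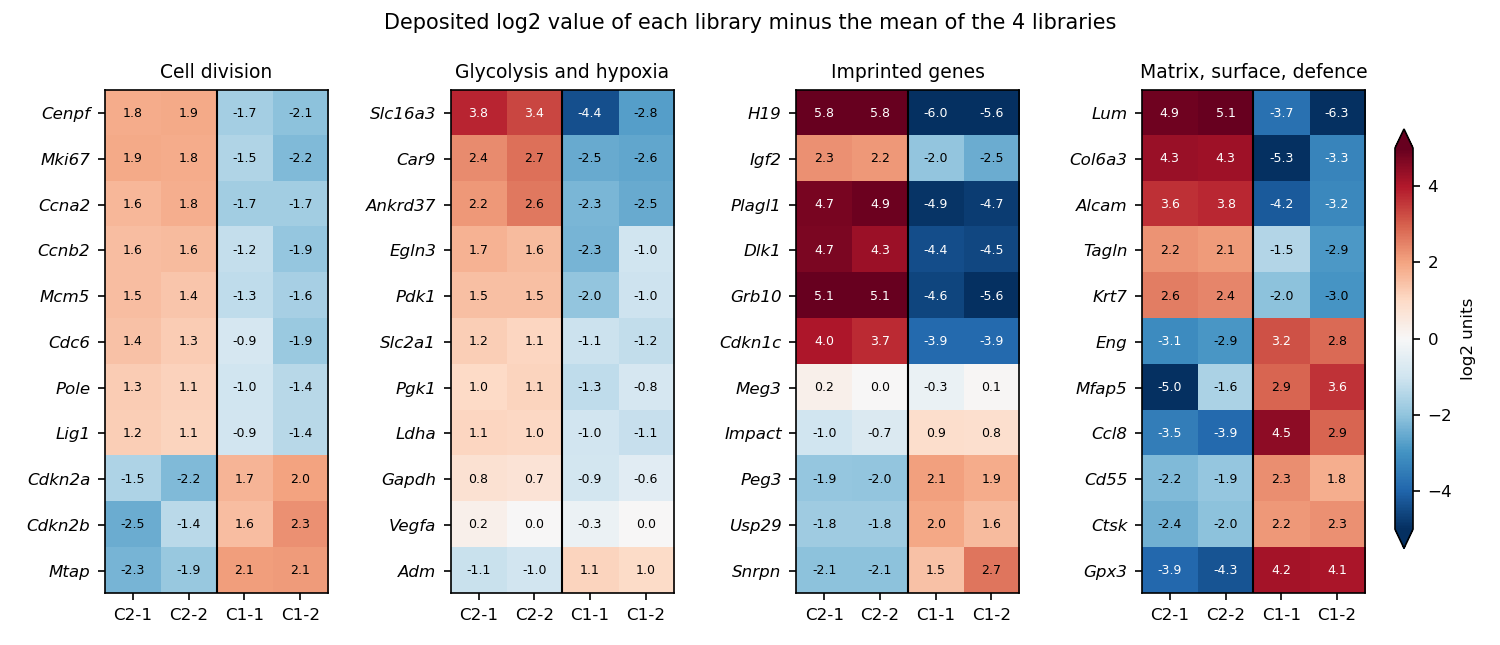
Deposited log2 values of named genes in the 4 libraries, C2-1 and C2-2 left of C1-1 and C1-2, each minus the mean of the 4 libraries of that gene, with red for higher and blue for lower. Both libraries of a type share their colour in the mitotic genes, the glycolytic genes, Cdkn2a, Cdkn2b and Mtap, while Vegfa (0.27) and Meg3 (0.27) are pale throughout.

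Most tested HOX genes were measurable in C2 and at the limit in C1. The 39 HOX genes lie in 4 clusters, and their order along a cluster is known to match the order in which they are used along the body axis. Of these genes 28 had values, 20 passed the filter on low values, 15 rose and 2 fell. The filter kept members that were high in some library, so this count describes 20 genes and not all 39. The median difference was 5.53, or 4.13 with genes at the limit set to their bound, and with no filter 16 rose and 4 fell. In all 15 rises both C1 libraries were at or under the limit, and in 14 of them both C2 libraries were above theirs.

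Hoxd3 had 272 and 266 normalized reads in C2, against the floor in both C1 libraries, at least 88.9-fold higher in C2. Hoxd8 had 249 and 213 in C2, against 1 and 2.00 in C1, at least 76.3-fold higher. Hoxa3 had 191 and 159 in C2 and 1 in each C1 library, at least 57.8-fold higher. In these genes both C2 libraries were far above their limit and both C1 libraries were at or under theirs. Hoxa5 had 180 and 138 normalized reads in C2 and 1 in each C1 library, at least 52.5-fold higher. Hoxa7, with 145 and 114 in C2, was at least 42.8-fold higher, Hoxd9 at least 31.4-fold, Hoxd4 at least 28.3-fold and Hoxb7 at least 26.2-fold. Hoxb8, Hoxa4, Hoxb6, Hoxa2, Hoxb5 and Hoxa6 followed, with bounds of 24.6-fold, 24.3-fold, 12.6-fold, 12.2-fold, 10.0-fold and 7.34-fold higher. These 14 genes belong to the A, B and D clusters, and of the C cluster Hoxc6 was the 1 gene tested.

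Hoxc6 went the other way, with 1 normalized read in each C2 library, against 23.4 and 17.0 in C1, at least 3.30-fold lower in C2. Hoxb4 stood at 0.20 and 0.45 in C2 and at 1.47 and 1.21 in C1 and fell by 1.01 (SE 0.17, adjusted p = 0.00528), and without C1 replicate 1 or C2 replicate 1 its difference was under 1. Hoxa10, the other call, was at the limit in both types, with 4.08 and 2.07 normalized reads in C2 and 1 in each C1 library, against 83.4 and 64.0 in the C3 libraries, and its call was lost without C1 replicate 1, C1 replicate 2 or C2 replicate 1 (adjusted p from 0.0829 to 0.0972). Hoxb2 and Hoxb3 did not pass, with differences of 0.86 and 0.78. In C3 the genes that rose in C2 were also above the limit, for example Hoxd3 with 117 and 130 normalized reads and Hoxa3 with 185 and 111.

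**Figure D3:**
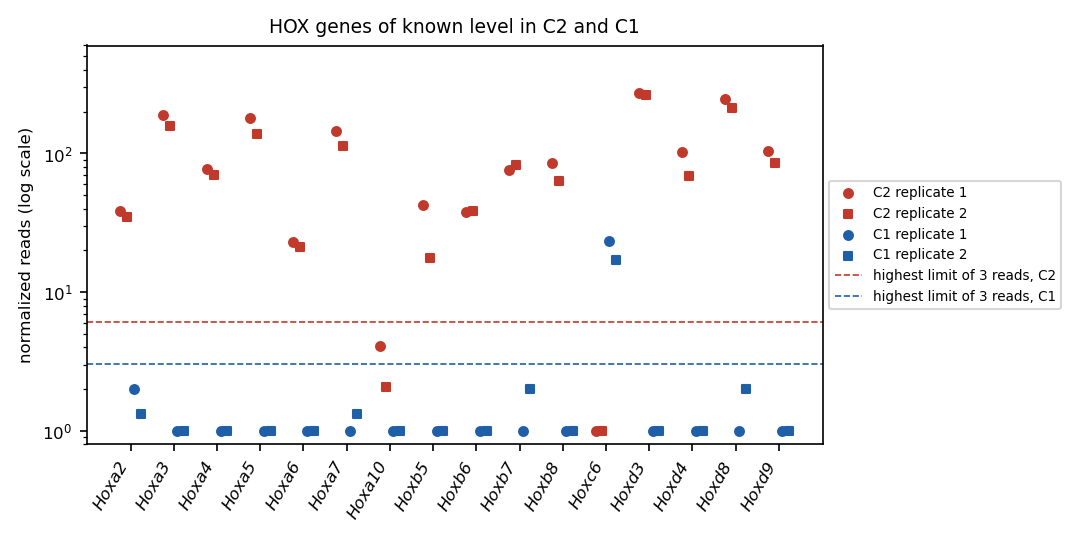
Normalized reads on a log scale of the tested HOX genes of known level, red for the C2 libraries and blue for the C1 libraries, circles for replicate 1 and squares for replicate 2, with dashed lines at the highest limit of 3 reads of each type (6.12 in C2 and 3.02 in C1). The C2 points of 14 genes lie between 17.6 (Hoxb5) and 272 (Hoxd3) while their C1 points lie under the blue line, and Hoxc6 shows the opposite order.

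Other transcription factors that set cell identity also differed. Of 15 tested cardiac transcription factors, 3 rose and 12 did not pass, with a median of 0.50, and without C2 replicate 2 the rises were 5. Mef2c, a factor of muscle development, stood at 0.11 and -0.11 in C2 and at -5.61 and -4.62 in C1, a difference of 5.11 ± 0.40 (adjusted p = 0.000303). Tbx2, a T-box repressor of the atrioventricular canal, stood at 1.47 and 0.99 in C2 and at -3.18 and -3.51 in C1 (4.57 ± 0.21, adjusted p = 5.46e-05). The C2 libraries were the higher ones in both genes. Gata6, a zinc finger factor of heart development, rose by 1.86 ± 0.25, while Gata4, of the same family, differed by -0.18 ± 0.16 (adjusted p = 0.446).

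Factors of mesenchymal identity were split. Of 13 factors linked to epithelial-mesenchymal transition, 2 rose and 3 fell, with a median of -0.18. Twist2, a basic helix-loop-helix factor of fibroblasts, stood at -2.66 and -2.63 in C2 and at 2.30 and 2.25 in C1 and fell by 4.92 (SE 0.22, adjusted p = 5.32e-05). Foxs1, a forkhead factor, fell by 4.19 (SE 0.56) and Foxc2, another, fell by 2.39 (SE 0.38). Prrx2, a homeobox gene of mesenchyme, rose by 3.22 ± 0.39 and Sox4 by 1.82 ± 0.26. Tcf21, a factor of the epicardium and of cardiac fibroblasts, stood at -3.25 and -3.31 in C2 and at 1.11 and 0.46 in C1 and fell by 4.07 (SE 0.41, adjusted p = 0.000722).

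Imprinted genes, of which one parental copy is silent, held several of the largest differences. Of 25 tested members, 7 rose and 7 fell, with a median of 0.37. H19, a noncoding RNA from the maternal copy, stood at 8.20 and 8.13 in C2 and at -3.65 and -3.25 in C1, a difference of 11.62 ± 0.22 (adjusted p = 1.57e-06) and the largest rise among named genes. Grb10, an adaptor that dampens insulin signalling, stood at 1.55 and 1.56 in C2 and at -8.13 and -9.14 in C1 (10.19 ± 0.39, adjusted p = 3.52e-05). Plagl1, a zinc finger factor expressed from the paternal copy, stood at 7.35 and 7.52 in C2 and at -2.26 and -2.12 in C1 (9.63 ± 0.40, adjusted p = 4.17e-05). The C2 and C1 libraries of each type lay within about 1 log2 unit of each other in these genes. Dlk1, a membrane protein of progenitor cells, stood at 8.76 and 8.31 in C2 and at -0.39 and -0.48 in C1 (8.97 ± 0.36, adjusted p = 4.03e-05). In C3 the values were lower again than in C2, with H19 at -1.76 and -1.57 and Dlk1 at 4.73 and 4.10.

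Neighbours in an imprinted domain did not all move together. Igf2, the growth factor gene beside H19, stood at 7.04 and 6.94 in C2 and at 2.79 and 2.26 in C1, a difference of 4.46 ± 1.27 (adjusted p = 0.0327). Its call was lost when any 1 of the 4 libraries was left out (adjusted p from 0.0991 to 0.132). Meg3, the noncoding gene of the Dlk1 domain, stood at 0.66 and 0.46 in C2 and at 0.08 and 0.49 in C1 and did not pass (0.27 ± 0.44, adjusted p = 0.671), while in C3 it stood at -7.32 and -7.72. Peg3, a zinc finger gene of the paternal copy, stood at -1.01 and -1.03 in C2 and at 3.0 and 2.79 in C1 and fell by 3.91 (SE 0.51, adjusted p = 0.00189). Usp29, which shares the Peg3 domain, was at the floor in both C2 libraries, against 13.1 and 10.0 normalized reads in C1, at least 1.89-fold lower in C2. Both genes of this domain were therefore low in C2 and higher in C1. Snrpn, of the Prader-Willi region, was at the floor in C2, against 11.5 and 26.5 in C1, at least 3.10-fold lower, and its call was lost without C1 replicate 2, C2 replicate 1 or C2 replicate 2 (adjusted p from 0.0518 to 0.0699). Impact, a regulator of translation, fell by 1.71 (SE 0.22). The imprinted falls were 5 without C1 replicate 1, 4 without C1 replicate 2 or C2 replicate 2 and 3 without C2 replicate 1.

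Genes of the extracellular matrix moved in both directions. Of 41 genes of fibroblasts and their matrix, 12 rose and 7 fell, with a median of 0.74. The falls were 4 without C2 replicate 2 and 5 without any 1 of the other libraries. Lum, the collagen-binding proteoglycan lumican, stood at 2.54 and 2.81 in C2 and at -6.04 and -8.62 in C1, a difference of 10.01 ± 1.07 (adjusted p = 0.000908). Col6a3, a chain of the microfibrillar collagen VI, stood at 0.44 and 0.38 in C2 and at -9.17 and -7.17 in C1 (8.58 ± 0.58, adjusted p = 0.000187). In both genes C2 was far above both C1 libraries, which differed from each other by about 2 log2 units or more. Col15a1 rose by 6.06 ± 0.34, and the fibrillar collagen genes rose less, with Col3a1 by 2.51 ± 0.43 and Col1a1 by 1.98 ± 0.24. Col11a1, a fibrillar collagen of cartilage and other tissue, stood at 2.89 and 2.82 in C2 and at -4.60 and -4.61 in C1 (7.46 ± 0.78, adjusted p = 0.000832). Fn1, the gene of fibronectin, rose by 1.07 ± 0.21, a call lost without C2 replicate 1 (adjusted p = 0.0521). Vim, the intermediate filament of mesenchymal cells, differed by 0.04 ± 0.17 (adjusted p = 0.902).

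Other matrix genes fell. Mfap5, a glycoprotein of microfibrils, stood at -8.24 and -4.85 in C2 and at -0.35 and 0.35 in C1 and fell by 6.55 (SE 0.94, adjusted p = 0.00274). The C2 libraries were the lower ones but differed from each other by more than 3 log2 units. Fbln1, the gene of fibulin 1, stood at -1.32 and -1.80 in C2 and at 2.52 and 2.15 in C1 and fell by 3.89 (SE 0.31), and Thbs2, an antiangiogenic matrix protein, fell by 3.46 (SE 0.29). Among 22 genes of the basement membrane, the sheet under epithelia and around muscle cells, 9 rose and 2 fell, with a median of 0.67. Lama2, a laminin chain of muscle, rose by 4.22 ± 0.36, Col18a1 by 2.93 ± 0.38, Lamb3 by 2.52 ± 0.33 and Col4a1 by 2.07 ± 0.17. Nid1, the linker protein nidogen, fell by 1.18 (SE 0.17), and Lama1 fell by 2.44 (SE 0.47, adjusted p = 0.00818), a call lost without C1 replicate 2 (adjusted p = 0.0536).

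Enzymes that cut the matrix and their inhibitors were likewise mixed, with 10 rises and 6 falls among 32 genes and a median of 0.37. Mmp2, a gelatinase, stood at 1.60 and 1.39 in C2 and at -2.47 and -2.54 in C1 (4.0 ± 0.34, adjusted p = 0.000414). The stromelysin genes went the other way. Mmp3 stood at -1.87 and -1.63 in C2 and at 1.59 and 1.06 in C1 and fell by 3.07 (SE 0.23), and Mmp10 fell by 2.48 (SE 0.29). Timp2, an inhibitor of these enzymes, fell by 1.98 (SE 0.13), while Timp4 had 20.4 and 11.4 normalized reads in C2, against 1.01 and 1.34 in C1, at least 5.25-fold higher. Adam12 rose by 2.97 ± 0.37 and Adamts12 by 2.55 ± 0.43, and Adamts7 fell by 2.19 (SE 0.25).

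Genes of the contractile apparatus were higher in C2 where they passed, with 6 rises and 11 genes that did not pass among 17 and a median of 0.93, or 0.76 with genes at the limit set to their bound. Tagln, an actin-binding protein of smooth muscle, stood at 1.59 and 1.46 in C2 and at -2.12 and -3.53 in C1 (4.35 ± 0.50, adjusted p = 0.0012). Myl9, a myosin light chain, rose by 3.79 ± 0.37 and Lmod1, an actin nucleator of smooth muscle, by 2.96 ± 0.20. Acta2, smooth muscle actin, stood at 0.39 and 0.36 in C2 and at -0.23 and -0.88 in C1, a difference of 0.93 ± 0.29 (adjusted p = 0.0426) under the required size, which it passed without C1 replicate 1 (adjusted p = 0.0364). Among 8 pericyte genes 3 rose and 2 fell, and 1 of the rises was at the limit in both types. Mcam, the adhesion protein CD146, stood at 0.59 and 0.65 in C2 and at -3.89 and -3.89 in C1 (4.51 ± 0.25, adjusted p = 9.57e-05), and Pdgfrb, a receptor for platelet-derived growth factor, fell by 1.50 (SE 0.27).

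Surface proteins used to sort mesenchymal and progenitor cells changed in both directions, with 6 rises and 3 falls among 16 and a median of 0.35. Alcam, or CD166, stood at 0.81 and 0.94 in C2 and at -7.05 and -6.05 in C1, a difference of 7.43 ± 0.68 (adjusted p = 0.000498). Cd34 stood at 0.06 and 0.13 in C2 and at -4.65 and -3.65 in C1 (4.24 ± 0.49, adjusted p = 0.00124). Thy1, or CD90, had 20.3 and 17.6 normalized reads in C2, against 1.01 and 1 in C1, at least 6.27-fold higher. These 3 were near or at their lowest in both C1 libraries. Cd248, endosialin, rose by 2.73 ± 0.31. Eng, the TGF-beta co-receptor endoglin or CD105, went the other way, at -4.75 and -4.54 in C2 and 1.58 and 1.23 in C1, and fell by 6.04 (SE 0.17, adjusted p = 9.79e-06). Icam1 fell by 2.22 (SE 0.28). Ly6a, or Sca-1, stood at -3.03 and -1.93 in C2 and at -0.34 and 0.05 in C1 and fell by 2.34 (SE 0.55, adjusted p = 0.0167), a call lost without C1 replicate 1, C1 replicate 2 or C2 replicate 1 (adjusted p from 0.0556 to 0.0941).

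Adhesion receptors rose more often than they fell, with 8 rises and 2 falls among 20 integrins and cadherins and a median of 0.85, or 0.72 with genes at the limit set to their bound. Cdh11, a cadherin of mesenchyme, stood at 4.02 and 4.03 in C2 and at -1.77 and -1.99 in C1 (5.91 ± 0.31, adjusted p = 8.5e-05). The laminin receptor chains Itga6 and Itga7 rose by 3.83 ± 0.43 and 3.50 ± 0.34, and Itga11, a collagen receptor chain, by 3.37 ± 0.37. Itga4, a chain of the receptor for VCAM1 and fibronectin, had 2.04 and 1.04 normalized reads in C2, against 35.8 and 61.2 in C1, at least 7.92-fold lower in C2. Itgb5 fell by 1.19 (SE 0.16).

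Epithelial genes rose where they passed, with 5 rises and 8 genes that did not pass among 13 and a median of 1.73, and 1 of the rises was at the limit in both types. Krt7, a keratin of simple epithelia, stood at 5.16 and 5.03 in C2 and at 0.56 and -0.36 in C1 (5.00 ± 0.92, adjusted p = 0.00698). Jup, the junction protein plakoglobin, rose by 3.27 ± 0.47, Cdh3, P-cadherin, by 3.21 ± 0.30 and Krt18 by 3.08 ± 0.44. Cdh1, the E-cadherin that defines epithelia, stood at 1.43 and 1.51 in C2 and at 0.33 and -2.58 in C1 and did not pass (2.59 ± 1.07, adjusted p = 0.102), although the C2 libraries were the higher ones. Without C1 replicate 1 it passed (adjusted p = 0.0362). Krt8, the usual partner of Krt18, was at the limit in both types. Among 12 epicardial and mesothelial genes 4 rose and 1 fell, with a median of 1.03. Lrrn4 rose by 2.36 ± 0.18, Bnc1 by 2.29 ± 0.19, Gpm6a by 2.26 ± 0.21 and Upk3b, a uroplakin of mesothelium, by 1.31 ± 0.20. Cpe, carboxypeptidase E, fell by 1.94 (SE 0.17), and Wt1, the defining factor of the epicardium, did not pass (2.36 ± 1.03, adjusted p = 0.118).

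Genes of innate defence fell more often than they rose. Of 17 complement genes, 8 fell and 9 did not pass, with a median of -1.08, or -0.72 with genes at the limit set to their bound, and 7 to 8 fell when any 1 library was left out. Cd59a, which blocks the membrane attack complex, had 1 and 3.62 normalized reads in C2, against 93.3 and 113 in C1, and fell by 5.76 (SE 0.56, adjusted p = 0.000635). Cd55, which speeds decay of the convertases, stood at -0.13 and 0.13 in C2 and at 4.40 and 3.87 in C1 and fell by 4.13 (SE 0.34, adjusted p = 0.000358). Both of these inhibitors were low in both C2 libraries. Cfb, the gene of the soluble factor B, fell by 3.41 (SE 0.45). Of 16 genes of antigen presentation, 5 fell and 11 did not pass, with a median of -0.98. The falls were 9 with quantile normalization, 4 without C1 replicate 1 or C2 replicate 1 and 3 without C1 replicate 2 or C2 replicate 2. H2-D1, a class I heavy chain, stood at -2.17 and -2.39 in C2 and at -0.09 and 0.09 in C1 and fell by 2.28 (SE 0.28), and B2m, the class I light chain, fell by 1.86 (SE 0.18). H2-D1 has close relatives in the same family, so its reads may be shared with them.

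Cytokine genes gave 9 falls and 2 rises among 25, with a median of -0.08 and 6 falls in each fit without 1 of the 4 libraries. Ccl8, a chemokine that draws monocytes, stood at -2.98 and -3.42 in C2 and at 4.94 and 3.38 in C1 and fell by 7.36 (SE 1.31, adjusted p = 0.00615). Ccl7 fell by 3.66 (SE 0.32), Cxcl16 by 3.33 (SE 0.38), and 2 cytokines rose. Il33, an alarmin, stood at 2.96 and 3.17 in C2 and at -1.01 and 0.35 in C1 (3.40 ± 0.53, adjusted p = 0.00365), and Il6 rose by 1.68 ± 0.31. The interferon-stimulated genes were near the middle, with 2 rises and 1 fall among 30 and a median of -0.04. Trim30a was the 1 that fell, by 1.68 (SE 0.30), and the rises were Ifi27l2a and Ifi44. The call of Ifi27l2a (adjusted p = 0.0191) was lost when any 1 library was left out and that of Ifi44 (adjusted p = 0.0159) without C1 replicate 1, C2 replicate 1 or C2 replicate 2, with adjusted p from 0.0605 to 0.0846 over both genes. Markers of macrophages, which also make many of these proteins, were looked at beside the falls. The 11 macrophage and monocyte genes of known level summed to 16.2 and 15.3 normalized reads in C2, against 15.1 and 13.3 in C1. The floor alone gives a sum of 11, so these sums were near the floor and leave out members of unknown level such as Lyz2. The defining genes Fcgr1, Cd163, Cx3cr1 and Ccr2 were at the limit in both types. Emr1, another defining gene, had 1 normalized read in each C2 library, against 3.02 and 2.67 in C1, where the limits were 3.02 and 2.00. Of all 29 tested members 1 rose and 28 did not pass, but 5 fell when both A libraries were left out of the fit or when C2 and C1 were fitted alone. Among these was Lyz2, a lysozyme whose reads may be shared with its near copy Lyz1, at -2.21 and -1.92 in C2 and at 0.49 and 1.36 in C1 (-2.99 ± 1.00, adjusted p = 0.0552 over all libraries). The part of these cells in the falls was not tested.

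Lysosomal genes fell more often than they rose. Of 25 genes of lysosomal enzymes and membrane proteins, 13 fell and 1 rose, with a median of -1.14. The number of falls was 8 without C1 replicate 2 or C2 replicate 1 and 11 without either of the other libraries, and 18 with quantile normalization. Ctsk, a collagen-degrading protease, stood at -2.46 and -2.10 in C2 and at 2.13 and 2.22 in C1 and fell by 4.45 (SE 0.34, adjusted p = 0.000275). Ctsh fell by 2.51 (SE 0.21), Hexa, a subunit of hexosaminidase, by 2.02 (SE 0.23), and Lamp1, the main membrane protein of lysosomes, by 1.86 (SE 0.20). Ctsc, which activates serine proteases, was the exception and rose by 2.03 ± 0.15. Both C2 libraries lay below both C1 libraries in 22 of the 25 genes and above them in 1, beside 72.7% of all genes that did not overlap in either direction.

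Antioxidant and glutathione genes gave 6 falls and 1 rise among 25, with a median of -0.41. Gpx3, the secreted glutathione peroxidase, stood at -4.59 and -4.97 in C2 and at 3.51 and 3.42 in C1 and fell by 8.25 (SE 0.16, adjusted p = 1.57e-06). Sod3, the extracellular superoxide dismutase, stood at -4.66 and -4.87 in C2 and at 0.44 and 0.18 in C1 and fell by 5.07 (SE 0.21, adjusted p = 4.23e-05). These secreted enzymes were low in both C2 libraries. The mitochondrial Sod2 fell by 1.84 (SE 0.23) and Gsta3, a glutathione transferase, by 1.98 (SE 0.38). Gclm, a subunit of the enzyme that starts glutathione synthesis, rose by 1.15 ± 0.19, and this call was lost with quantile normalization and when chromosome medians were taken away.

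Signalling genes moved singly more than as lists. Of 28 genes of Wnt signalling, 7 rose and 3 fell, with a median of 0.54, and without C1 replicate 1 the rises were 4. Among the secreted ligands and their modulators, Sfrp2, which binds Wnt proteins, had 288 and 279 normalized reads in C2, against 1.01 and 1 in C1, at least 93.7-fold higher. Wnt16 had 155 and 151 in C2, against 26.2 and 15.1 in C1 (2.94 ± 0.41, adjusted p = 0.00231). Wnt4 rose by 3.28 ± 0.23. Dkk3 stood at -0.41 and -0.30 in C2 and at 3.28 and 3.40 in C1 and fell by 3.70 (SE 0.25, adjusted p = 0.000187). Nkd2, an inhibitor inside the cell, fell by 3.55 (SE 0.30) and Ror1, a receptor, by 2.24 (SE 0.31). Sfrp2 and Dkk3 therefore moved in opposite directions.

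In TGF-beta and BMP signalling 7 of 33 genes rose and 4 fell, with a median of 0. With quantile normalization 10 fell and the median was -0.43, 7 fell with C2 and C1 fitted alone and 2 fell without C1 replicate 2. Ltbp2, a matrix protein of the latent TGF-beta binding family, stood at 0.82 and 0.43 in C2 and at -4.36 and -5.19 in C1 (5.40 ± 0.67, adjusted p = 0.0015). Tgfbi, a matrix protein induced by TGF-beta, rose by 4.06 ± 0.56, Fst, the activin antagonist follistatin, by 3.37 ± 0.41 and Id4, a BMP target, by 2.48 ± 0.33. The ligand genes Tgfb2 and Inhba fell by 1.89 (SE 0.33) and 1.25 (SE 0.23).

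Growth factors and their receptors gave 11 rises and 9 falls among 37, with a median of 0.30. Only 4 to 5 rises and 6 to 7 falls were called when any 1 library was left out, so many of these calls rest on all 4 libraries. Nrg1, neuregulin 1, stood at 2.70 and 2.62 in C2 and at -0.17 and -0.42 in C1 (2.95 ± 0.46, adjusted p = 0.00363), and Fgf7 rose by 2.78 ± 0.23. Igfbp7, which binds insulin-like growth factors, fell by 2.02 (SE 0.19) and Angpt2, a ligand of the Tie2 receptor, by 2.51 (SE 0.41). Gdnf, a neurotrophic factor, stood at -3.15 and -1.96 in C2 and at 1.21 and 1.59 in C1 and fell by 3.95 (SE 0.75, adjusted p = 0.00795), a call lost without C2 replicate 1 (adjusted p = 0.0536). Igfbp3 rose by 4.89 ± 1.07 and was not called without C1 replicate 1, C2 replicate 1 or C2 replicate 2 (adjusted p from 0.0534 to 0.0762). Ptn, the heparin-binding growth factor pleiotrophin, was in no list and stood at 5.99 and 5.94 in C2 and at -4.44 and -4.45 in C1, a difference of 10.41 ± 1.08 (adjusted p = 0.000806).

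Genes of axon guidance, which also steer cells outside the nervous system, gave 10 rises and 5 falls among 36, with a median of 0.53, and the falls were 3 without C1 replicate 2 and 2 without any 1 of the other libraries. Slit2, a repulsive ligand, stood at 1.33 and 1.41 in C2 and at -1.91 and -2.53 in C1 (3.59 ± 0.28, adjusted p = 0.000282), while its receptor gene Robo1 stood at -1.81 and -2.03 in C2 and at 0.34 and 0.09 in C1 and fell by 2.13 (SE 0.23, adjusted p = 0.000983). The ligand was thus higher and the receptor lower in C2. Epha3, an ephrin receptor, had 81.5 and 56.9 normalized reads in C2, against 1.01 and 3.95 in C1 (5.09 ± 0.97, adjusted p = 0.00782). Ephb2 rose by 3.70 ± 0.54 and Sema3a by 2.20 ± 0.17, and Ntn1, the ligand netrin 1, fell by 2.23 (SE 0.40). In retinoic acid signalling 2 of 12 genes rose and 10 did not pass. Rbp4, the retinol carrier, stood at 4.07 and 3.73 in C2 and at -2.98 and -2.56 in C1 (6.67 ± 0.40, adjusted p = 0.000126), and Crabp2, which carries retinoic acid to its receptors, had 49.0 and 85.0 normalized reads in C2 and 1 in each C1 library, at least 22.2-fold higher. In Notch signalling 3 of 12 rose and 9 did not pass, with a median of 0.21, led by the target gene Hey1, which was at least 4.93-fold higher. In the Hippo list 2 of 14 rose, among them Cyr61 by 1.62 ± 0.23.

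Among 19 immediate early genes, which respond within minutes to growth signals, 7 rose and 1 fell. Nr4a3, a nuclear receptor, stood at 0.28 and 0.16 in C2 and at -3.29 and -3.53 in C1 (3.63 ± 0.34, adjusted p = 0.000558), and Fosl1 rose by 3.05 ± 0.51, Egr3 by 2.91 ± 0.19 and Nr4a1 by 2.57 ± 0.37. Of 21 genes of DNA methylation and Polycomb, 8 rose and 1 fell, with a median of 0.71. Uhrf1, which guides maintenance methylation at replication forks, rose by 3.19 ± 0.30, Ezh2, the Polycomb methyltransferase, by 2.36 ± 0.21 and Dnmt3a by 2.11 ± 0.24. Ezh1, the other Polycomb methyltransferase, fell by 1.09 (SE 0.14). Of 22 genes of the amino acid response and endoplasmic reticulum stress, 7 rose and 15 did not pass, with a median of 0.79, led by Mthfd2, an enzyme of one-carbon metabolism, with 2.34 ± 0.17. Of 21 genes of cholesterol synthesis and uptake 2 rose. Of 12 heat shock genes 1 passed, and Hspb1 fell by 2.39 (SE 0.24).

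Markers of other cell types were checked in the same libraries. In the macrophage and monocyte list, given above, the 1 gene that rose was Trem2, which was called in none of the fits without 1 of the 4 libraries (adjusted p from 0.101 to 0.195). Of 13 genes shared by leukocytes 1 rose, Arhgdib, by 1.09 ± 0.18, and differences ran from -3.30 to 1.38. The 6 of known level summed to 6 and 6.07 normalized reads in C2, against 8.03 and 6.34 in C1. The floor alone gives a sum of 6. Of 13 lymphocyte genes 6 had values and 2 were tested. Lck, a kinase of T cells, rose by 2.76 ± 0.29, and the other tested gene was at the limit in both types. The 5 lymphocyte genes of known level summed to 7.14 and 5 normalized reads in C2, against 5.01 and 5.34 in C1. The floor alone gives a sum of 5. The defining endothelial genes Pecam1 and Cdh5 were at the limit in all 4 libraries, and of 12 endothelial genes 5 rose and 1 fell, with 1 to 2 rises when any 1 library was left out. In 2 of the 5 rises C1 was at the limit and C2 had at most 6.12 normalized reads. Flt1, a VEGF receptor, stood at 0.37 and 0.57 in C2 and at -3.78 and -4.38 in C1 (4.55 ± 0.67, adjusted p = 0.00302), and Ptprb, a phosphatase of endothelium, fell by 3.13 (SE 0.20).

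Of 8 cardiomyocyte genes that passed the filter 1 rose and 1 fell. Tnni3, cardiac troponin I, stood at 2.11 and 1.56 in C2 and at -3.28 and -2.87 in C1 (4.91 ± 0.27, adjusted p = 9.96e-05). Ttn, titin, fell by 1.33 (SE 0.39), and its call was lost when any 1 library was left out (adjusted p from 0.0509 to 0.185). Among 10 tested genes of neural crest and Schwann cells 4 rose and 1 fell, with a median of 0.24, or 0 without chromosomes 3 and 7. Of the 10 genes 5 were higher in C2 and 3 were at the limit in both types. Nes, the filament protein nestin, stood at 0.14 and -0.14 in C2 and at -4.08 and -6.00 in C1 (5.04 ± 0.75, adjusted p = 0.0032), and Ncam1 rose by 2.45 ± 0.28. In the bone and cartilage list 2 of 12 rose, Col11a1, given above, and Alpl, alkaline phosphatase, with 28.6 and 26.9 normalized reads in C2, against 1 and 2.00 in C1, at least 9.18-fold higher. In the adipocyte list 2 of 7 rose, among them Dgat2, an enzyme of triglyceride synthesis, by 2.48 ± 0.22. Of the 13 genes of the pluripotency list 5 had values and 2 passed the filter. Myc rose by 1.44 ± 0.30 (adjusted p = 0.0103), a call lost without C2 replicate 1 and with C2 and C1 fitted alone. The other tested gene differed by 0.54 and did not pass.

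The remaining largest changes lay outside the lists. Slc38a5, an amino acid transporter, had 2.04 and 1.04 normalized reads in C2, against 546 and 498 in C1, at least 85.2-fold lower in C2. Vat1l stood at -3.35 and -2.33 in C2 and at 5.01 and 5.88 in C1 and fell by 8.28 (SE 0.46, adjusted p = 0.000102). Cttnbp2, a cortactin-binding protein known from neurons, was at the floor in C2, against 142 and 160 normalized reads in C1, at least 24.7-fold lower. These 3 genes were low in both C2 libraries and high in both C1 libraries. Dpep1, a membrane dipeptidase, stood at -5.20 and -5.06 in C2 and at 1.91 and 1.51 in C1 and fell by 6.83 (SE 0.17, adjusted p = 5.23e-06). Naalad2, a peptidase, fell by 6.36 (SE 0.20) and Parvb, an adaptor at integrin adhesions, by 6.16 (SE 0.58). Pde9a, a phosphodiesterase of cyclic GMP, was at least 15.8-fold lower, and Abcg1, a cholesterol exporter, with 1 and 1.04 normalized reads in C2, against 60.5 and 71.4 in C1, was at least 10.8-fold lower. Arsi, an arylsulfatase, was at least 73.8-fold higher, with 265 and 181 normalized reads in C2 and 1 in each C1 library.

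Genes of chromosomes 3 and 7 shifted together. The median difference of tested genes was 0.65 on chromosome 3 and 0.72 on chromosome 7, against 0 over all genes. The value for each C2 library against each C1 library lay between 0.605 and 0.696 on chromosome 3 and between 0.653 and 0.759 on chromosome 7. Of 692 tested genes on chromosome 3, 192 rose (27.7%) and 18 fell, and of 1063 on chromosome 7, 292 rose (27.5%) and 35 fell, against 12.2% and 8.18% of all genes. Smaller positive medians were found on chromosome 19 (0.41), chromosome 6 (0.26) and chromosome 4 (0.205). The other 14 autosomes lay between -0.23 and 0.09 and the X chromosome at -0.14. When chromosomes 3 and 7 were each split into 8 stretches, the medians of the stretches lay between 0.46 and 0.96. The medians on chromosome 3 were 0.02 and 0.07 in the C2 libraries, against -0.55 and -0.53 in the C1 libraries. On chromosome 7 they were 0.10 and 0.01 in C2, against -0.56 and -0.57 in C1. The 6 libraries of the other types lay between -0.01 and 0.23 on both chromosomes, so C1 stood apart from the rest of the series there. On chromosome 4 the medians were -0.44 and -0.41 in C1 and -0.20 and -0.19 in C2, against 0.10 to 0.28 in the other types. On chromosome 19 they were 0.30 and 0.22 in C2 and 0.23 and 0.15 in C3, against -0.07 and -0.05 in C1. DNA copy number was not measured, and its part was not tested.

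These chromosomes held 27.8% of all rises and 12.3% of all tested genes. Among their largest rises were single genes far beyond the shift. On chromosome 3 these included Sfrp2 and Col11a1, given above, and Mgarp, a mitochondrial protein, which stood at 1.74 and 1.71 in C2 and at -5.17 and -4.19 in C1 (6.40 ± 0.43, adjusted p = 0.000188). On chromosome 7 they were H19, Cdkn1c, Ccdc8, with 169 and 172 normalized reads in C2 and the floor in C1 and at least 56.4-fold higher, and Ctf1, the cytokine cardiotrophin 1, which rose by 6.20 ± 0.27. Without these chromosomes some list medians were smaller and others were not. The median of mesenchymal and progenitor surface genes went from 0.35 to -0.01 and that of growth factors and receptors from 0.30 to 0.02. Of the 16 tested surface genes 1 lies on these chromosomes and it was not called, so that median moved by leaving out 1 gene, and 0 of the 6 rises lie there. Of the 37 growth factor and receptor genes 6 lie there, with 4 of the 11 rises. The median of fibroblast and matrix genes stayed at 0.74 and that of imprinted genes went from 0.37 to 0.46. Without the genes of chromosomes 3 and 7 the median of the mitosis list was 2.53 and that of the glycolysis and hypoxia list was 2.13, and no tested HOX gene lies on either chromosome. With the chromosome medians taken away from each library, 1393 genes rose and 1116 fell.

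**Figure D4:**
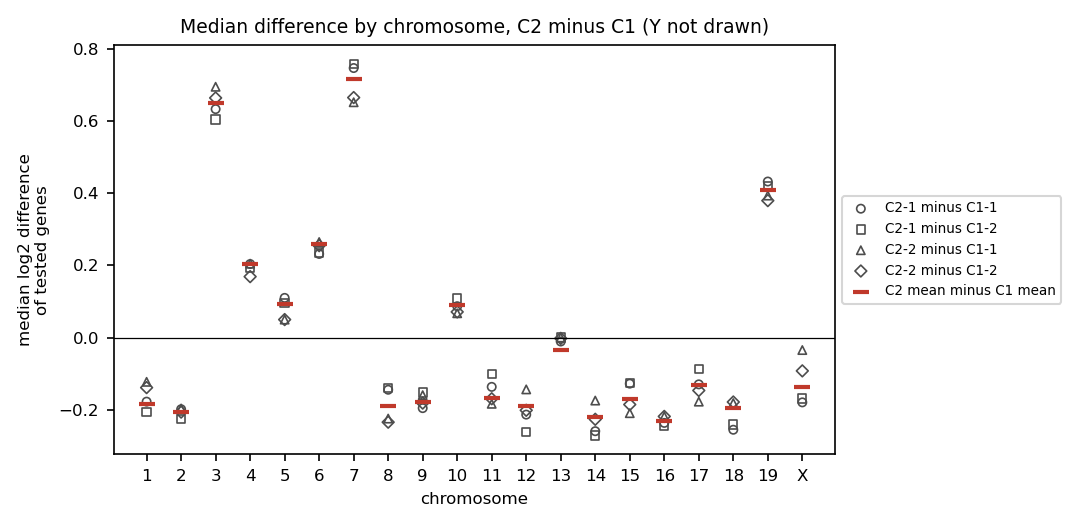
Median log2 difference of the tested genes of each chromosome, C2 minus C1, with open symbols for each C2 library against each C1 library and a red bar for the difference of the means. Chromosomes 3 (0.65) and 7 (0.72) lie above all others in every pair of libraries, chromosome 19 (0.41) is next, and the Y chromosome (-3.63) is not drawn.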

How the data were processed

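RNA of 10 libraries, of 5 cell types with 2 libraries each, was sequenced from TruSeq kits, per the labels' protocols. TopHat, DESeq and the mouse build mm10 are named, with no version or role, per the submitters' processing notes. The sources used here do not say how they were applied. The deposited values are on a log2 scale, and their form was inferred from the values: all 17821 genes not at 0 throughout had a median within 1e-05 of 0, and a floor of 1 normalized read was read from shared lowest values. Of 36172 genes, 17 with a cell turned into a date were left out and 18334 were 0 throughout. Between 33.0% and 70.5% of low values per library, up to 20 reads, lay within 0.01 of a whole read, so whole reads were not recovered, no count test was run, and depths and limits are estimates.

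A filter of 10 normalized reads in 2 libraries, which can act only on genes of known level, left 14253 genes, 1195 of them with a known level. limma 3.58.1 in R 4.3.3 was fitted to all 10 libraries with a mean per type and no covariate (5 residual and 1.93 prior degrees of freedom), two-sided, with Benjamini-Hochberg adjustment. No pseudocount was added. The fit was run on data simulated at the depths found here. Of 50 genes changed by 1.5 log2 units 48% were called, of 50 changed by 2 units 68% and of 50 changed by 3 units 92%. Of 14053 unchanged genes 0.0996% were called. The simulation changed a smaller share of genes than was called here and gave all types the same spread. Its shares may therefore differ from those of C2 against C1. The replicate deviations of C2 and C1 had a correlation of 0.04 over 14253 genes. This value cannot show whether libraries of the same number share a mouse or culture. Chromosomes, positions and promoters come from RefSeq on GRCm38.p6, by gene identifier, and 14131 tested genes had a chromosome.

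The comparison, gene lists and tests were chosen with earlier results of these data known. Genes were named by rule: the sort markers and sex chromosome genes, the 12 largest rises and 12 largest falls, up to 4 called members per list and direction, defining markers at the floor, and the 4 largest calls of a chromosome that stood apart. Some genes that the rule names are not reported here. Named genes outside this rule, among them those that did not pass, Mtap and its neighbours, the further HOX and glycolytic genes and Lyz2, were chosen after their values were seen.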

Additional observations from a re-analysis of the deposited data

How the results depend on the processing

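The count of 2906 calls was 2841 with C2 and C1 fitted alone, 3298 without both A libraries, 3022 without the filter, 2763 with a stricter filter, 2907 with median scaling, 2867 with robust empirical Bayes and 3220 with array weights. It was 5025 with no minimum difference, of which 2654 were higher and 2371 lower. With quantile normalization 2014 genes were lower, and the cause was not tested. Leaving out 1 of the 4 libraries gave 2174 to 2557 calls, of which 1273 to 1504 were higher and 861 to 1053 lower, with fewer samples in the fit. With a replicate block 1718 genes rose and 1147 fell, 2865 in all, and Trem2 was the 1 named gene that lost its call. Chromosome centring was added after seeing the data.

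Of 206 called genes named in the text, none changed sign under any of these settings. Calls were lost by 5 with C2 and C1 fitted alone (Angpt2, Hoxa10, Ifi44, Myc and Ttn), by 7 of 202 with chromosome centring, by 3 with quantile normalization (Gclm, Igf2 and Pkm), and by 9 to 16 when 1 of the 4 libraries was left out. Lists with few calls, such as the cardiomyocyte, adipocyte, interferon, Hippo and cholesterol lists, gained or lost 1 or 2 of them in such fits.

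Depth limits the genes near the floor: 269 called genes have both libraries of the lower type at the limit of 3 reads, and their folds are bounds that rest on the inferred scale. Levels of 13058 tested genes are unknown. With 2 libraries a type, an absent call does not show equal expression, and passage, sort and culture cannot be told apart.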
